A study of Mus musculus with 2 samples.

Results

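The kinesin family was followed on microarrays of embryonic mouse ureters treated with BIO. Members were taken as the genes whose name on the array is Kif or Kifc followed by a number and at most 1 of the letters a to c, which gave 66 probes of 41 genes among 29875 genes by name. Of these, 11 genes with a known role in mitosis (Kif2c, Kif4, Kif11, Kif14, Kif15, Kif18a, Kif20a, Kif20b, Kif22, Kif23 and Kifc1) were set against the other 30. The name rule leaves out Cenpe, a mitotic kinesin under another symbol, and Kif28, which the array lists under an older name.

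Ureters of wildtype NMRI embryos of unknown sex had been explanted at E12.5 and kept for 18 h on membranes, without serum, in medium with 10 µM BIO, an inhibitor of the kinase GSK3 that is used to activate canonical WNT signaling. Control explants of the same strain, genotype and stage received the solvent DMSO at 2 parts per 1000. RNA of a pool of control ureters and of a pool of BIO-treated ureters was hybridized together on each of 2 arrays, with the dyes exchanged, so that BIO was read in red in replicate 1 and in green in replicate 2. All results below compare BIO with control within each array, and n is 2 arrays throughout. The pools hold whole ureters with their epithelium, mesenchyme and vessels, and in such bulk RNA fewer cells of a type and less RNA per cell cannot be told apart.

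Kinesins are motor proteins that hydrolyze ATP and act on microtubules. Some members move vesicles, organelles or ciliary cargo along microtubules in cells at any stage of the cell cycle. Others are made mainly from G2 phase onward and build the spindle, align and separate chromosomes or drive cytokinesis, so that their RNA is low in resting cells. Many genes with a peak of RNA in G2 and mitosis carry a cell cycle homology region near the start site, with the letters TTTGAA, which is read by the DREAM and MuvB complexes, while genes of the S phase more often carry E2F sites such as TTTGGCGC.

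The start sites of the kinesin genes were therefore searched for these letters. RefSeq promoters (GRCm38.p6, 250 bases before to 50 bases from the annotated start) were at hand for 33 of the 41 genes, 10 of them mitotic. Kif20a and Kif5b had no entry. The following stretches run from 60 bases before the start site through its first 30 bases, on the strand of the gene, and were chosen because they hold the motif in the promoters of kinesins that rose with BIO. Capitals mark TTTGAA or its complement TTCAAA, and in Kif18a they mark the complement of the E2F letters.

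Kif11: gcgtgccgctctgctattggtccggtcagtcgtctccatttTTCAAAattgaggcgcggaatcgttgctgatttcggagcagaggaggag
Kif15: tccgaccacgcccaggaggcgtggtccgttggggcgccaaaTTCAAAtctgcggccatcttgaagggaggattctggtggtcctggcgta
Kif22: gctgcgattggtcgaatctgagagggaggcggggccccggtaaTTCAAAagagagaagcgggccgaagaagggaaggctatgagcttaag
Kif4: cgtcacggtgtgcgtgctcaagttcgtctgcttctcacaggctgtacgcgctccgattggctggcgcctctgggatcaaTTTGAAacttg
Kif20b: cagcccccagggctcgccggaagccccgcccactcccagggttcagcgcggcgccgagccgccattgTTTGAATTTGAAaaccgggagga
Kif23: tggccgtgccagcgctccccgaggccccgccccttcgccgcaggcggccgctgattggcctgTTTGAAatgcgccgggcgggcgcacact
Kifc1: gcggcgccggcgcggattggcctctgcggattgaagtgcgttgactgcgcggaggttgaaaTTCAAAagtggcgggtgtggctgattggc
Kif18b: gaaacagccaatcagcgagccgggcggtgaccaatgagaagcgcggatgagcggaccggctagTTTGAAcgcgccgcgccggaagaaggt
Kif18a: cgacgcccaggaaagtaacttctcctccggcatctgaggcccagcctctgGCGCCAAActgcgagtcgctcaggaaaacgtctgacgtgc

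These stretches lie at chr19:37376322-37376411 (Kif11, plus strand), chr9:122951021-122951110 (Kif15, plus strand), chr7:127042391-127042480 (Kif22, minus strand) and chrX:100626005-100626094 (Kif4, plus strand). Kif20b lies at chr19:34922298-34922387 on the plus strand, Kif23 at chr9:61946770-61946859 on the minus strand and Kifc1 at chr17:33890604-33890693 on the minus strand. Kif18b lies at chr11:102925095-102925184 on the minus strand and Kif18a at chr2:109280678-109280767 on the plus strand. For contrast, the same window of Kif3a, the motor subunit of the ciliary and transport kinesin-2 complex (chr11:53567309-53567398, plus strand), and of Kif7, a regulator of Hedgehog signaling at the tip of the cilium (chr7:79715678-79715767, minus strand), held no such letters. Both are examples only. Kif1a and Kif26b, which were not called, hold TTTGAA in this window, beginning at -44 and -9. The promoter of the risen Kif24 holds none.

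Kif3a: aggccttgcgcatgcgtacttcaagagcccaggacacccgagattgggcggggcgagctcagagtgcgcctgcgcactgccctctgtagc
Kif7: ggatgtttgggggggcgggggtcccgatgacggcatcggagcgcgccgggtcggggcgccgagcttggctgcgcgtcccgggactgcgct

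The first question was whether RNA of the mitotic kinesins differed between BIO and control. With BIO, 10 of the 11 mitotic kinesin genes rose and none fell at an adjusted p below 0.05 (limma, Benjamini-Hochberg adjustment over all probes tested). Rises ranged from 1.84-fold for Kif22 to 2.70-fold for Kif15, and Kif14 was not called. Among all 21574 genes tested, 9.13% rose and 14.8% fell. With the deposited score table in place of the normalized ratios, 5 of the 11 were called, and Kif11, Kif15, Kif18a, Kif4 and Kif23 missed the threshold at log2 ratios of 1.09 to 1.47 (adjusted p 0.0546 to 0.160). The 11 genes had a median log2 ratio of 1.17 (replicate 1 alone 1.23, replicate 2 alone 1.16), against -0.01 for all genes tested. The rise of genes of the cell cycle in these arrays was already known when the list was made.

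Kif11 and Kif15 push the spindle poles apart, and Kif15 can stand in for Kif11. The processed signal of Kif11, a background-subtracted and dye-normalized intensity, went from 1001 in control to 2625 with BIO on the array of replicate 1 and from 1103 to 2640 on that of replicate 2. That of Kif15 went from 978 to 3121 in replicate 1 and from 1250 to 3116 in replicate 2. For both genes the BIO signals were nearly the same on both arrays and lay far above both control signals. The log2 ratio was 1.27 ± 0.11 (SE) for Kif11, with 1.32 and 1.22 on the single arrays (limma adjusted p 0.000191). For Kif15 it was 1.43 ± 0.12, with 1.57 and 1.29 (adjusted p 0.000160). Their probes lie on chromosome 19 at 37495755 to 37495814 and on chromosome 9 at 122927298 to 122927357 (mm9).

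A further 3 mitotic kinesins act on chromosomes and microtubule ends, and all 3 rose. Kif2c, which takes tubulin off microtubule ends at centromeres, went from 1019 to 2224 in replicate 1 and from 1042 to 2363 in replicate 2, control first. Its log2 ratio was 1.10 ± 0.11 (adjusted p 0.000343), and a second probe gave 1.18 (adjusted p 0.000243). Kif18a dampens the movements of chromosomes at the metaphase plate. Its signal went from 505 to 1585 in replicate 1 and from 615 to 1505 in replicate 2, a log2 ratio of 1.38 ± 0.12 (adjusted p 0.000205). Kif22, which binds chromosome arms and pushes them to the plate, went from 4743 to 9018 in replicate 1 and from 5572 to 10203 in replicate 2. With 0.88 ± 0.11 (adjusted p 0.000940) it had the smallest rise of the 10 genes called.

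Of the 5 kinesins of the central spindle and of cytokinesis, 4 rose. Kif4, which works with Prc1 on the central spindle, had signals of 1023 and 2363 in replicate 1 and of 1124 and 2510 in replicate 2, control first, and a log2 ratio of 1.11 ± 0.11 (adjusted p 0.000308). Kif20a, which carries the chromosomal passenger complex with Aurkb to the midzone, went from 3694 to 8910 and from 4142 to 10089, a log2 ratio of 1.26 ± 0.11 (adjusted p 0.000192). Kif20b, a motor of late cytokinesis, went from 1264 to 2875 and from 1505 to 3509, a log2 ratio of 1.17 ± 0.11 (adjusted p 0.000270). In these 3 genes both arrays gave log2 ratios within 0.12 of each other. Kif23, which forms the centralspindlin complex with Racgap1, varied more. Its signal went from 1719 to 4138 in replicate 1 and from 1998 to 3704 in replicate 2, with log2 ratios of 1.27 and 0.81 that average to 1.04 ± 0.13 (adjusted p 0.00120). Kif23 has another probe, less bright, which rose by 0.68 (adjusted p 0.00588).

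Kif14, which recruits the kinase encoded by Cit to the midbody, was the mitotic kinesin without a call. Its signals were dim, going from 83.0 to 95.2 in replicate 1 and from 94.8 to 143 in replicate 2. Both BIO signals exceeded both control signals, by a narrow margin in replicate 1. The arrays gave log2 ratios of 0.07 and 0.42, which average to 0.25 (95% interval of limma from -0.04 to 0.53, adjusted p 0.194). A second probe of Kif14 lay at the floor of 15 in all 4 measurements, so that the RNA of Kif14 was measured by 1 dim probe only. The offset used in background correction pulls the ratios of such probes toward 0. With a smaller offset of 16 the log2 ratio of Kif14 was 0.28 (limma adjusted p 0.187). It was 0.40 with the processed signals (adjusted p 0.16) and 0.14 with median centering in place of loess (adjusted p 0.851). Kif14 was thus not called under these settings either, and the reason for the missing call was not tested.

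Kifc1, a minus-end motor that crosslinks spindle microtubules, went from 998 to 2459 in replicate 1 and from 839 to 1987 in replicate 2. Its log2 ratio was 1.21 ± 0.11, with 1.28 and 1.15 on the single arrays (adjusted p 0.000232). The annotation of this probe also lists a transcript of Kifc5b, a close relative on the same chromosome, so that the signal may come from both genes. The promoters of the 2 genes share an unbroken run of 68 bases.

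**Figure D1:**
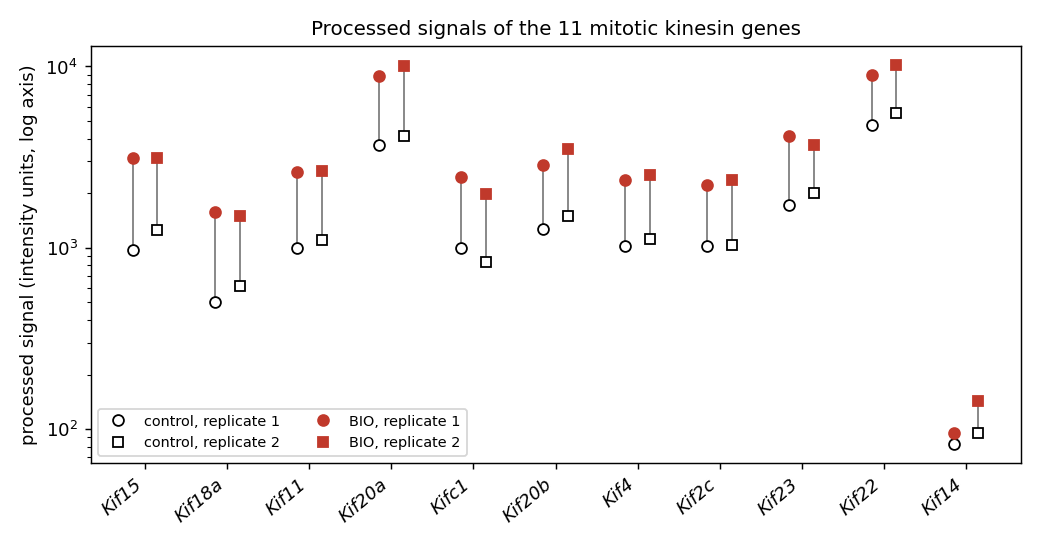
Processed signal (log axis) of the 11 mitotic kinesin genes in control (open) and BIO (filled) in replicate 1 (circles) and replicate 2 (squares), joined within an array. In all 11 genes both BIO points lie above both control points, and Kif14 is the dimmest with 83.0 to 143; heights of different genes rest on different probes and are not comparable.

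Both BIO signals lay above both control signals in all 11 mitotic kinesins, which was also the case in 29.7% of all genes tested, while 25.8% had both BIO signals below. The study's cut-offs for other arrays of this kind ask for an intensity of at least 100 and a change of at least 2-fold on both arrays, with no test, and the intensity was taken here as that of the brighter channel. By these, 8 of the 11 genes were higher with BIO, against 1.04% of all genes tested. They were not passed by Kif14, Kif22 and Kif23. The standard errors of the 10 rises were between 0.11 and 0.13, and the order of neighboring genes is not settled by 2 arrays. The ends of the order were apart on both, since Kif15 exceeded Kif22 by 0.66 in replicate 1 and by 0.45 in replicate 2 on the log2 scale. This difference was not tested.

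The second question was how the other kinesins behaved. Of 30 genes, 28 were tested, and the probes of Kif13b and Kif2b were not well above background in either group on both arrays. Of the 28, 3 rose, 3 fell and 22 were not called, with a median log2 ratio of 0.02 (replicate 1 alone 0.05, replicate 2 alone -0.03). These 3 of 28 in each direction are near the shares among all genes given above. The median of the mitotic kinesins exceeded that of the others by 1.15 on the log2 scale, and by 1.18 on each array alone. Among the 28 others tested, 9 genes had both BIO signals above both control signals and 6 had both below. These counts are near the shares of all genes tested, 29.7% and 25.8%.

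All 3 risen genes, Kif18b, Kifc5b and Kif24, were among 5 kinesins outside the mitotic list that were listed for a further role in cell division. Kif18b shortens astral microtubules in mitosis. Its signal went from 550 to 1425 in replicate 1 and from 574 to 1357 in replicate 2, a log2 ratio of 1.22 ± 0.11 (adjusted p 0.000215). Kifc5b is a minus-end motor of the Kifc1 type with a probe of its own, whose signal went from 94.7 to 211 and from 112 to 246, a log2 ratio of 0.89 ± 0.11 (adjusted p 0.000859). Kif24 acts at the mother centriole, where it restrains the growth of the cilium. Its signal went from 252 to 442 and from 260 to 506, a log2 ratio of 0.74 ± 0.12 (adjusted p 0.00310). The rise of Kif24 was below the range of the 10 risen mitotic kinesins, 0.88 to 1.43, and those of Kif18b and Kifc5b were within it. This placing depended on the setting. With the processed signals Kif24 was at 0.89, beside 0.90 for Kif22. With median centering Kif24 was at 0.61 and Kifc5b at 0.77, both below Kif22 at 0.89. With the score table Kif24 was at 0.92, above Kif22 at 0.89, but its call was lost (adjusted p 0.0916). Of the other genes with such a role, Kif2a, a depolymerizing kinesin of spindle and neurites, was at 0.24 (adjusted p 0.146), and Kif2b was not detected. With the score table Kif2a was called as risen (0.26, adjusted p 0.0342). Kif18b and Kifc5b also passed the study's cut-offs. Over all roles in cell division, 13 of 15 tested kinesins rose, against 9.13% of all genes tested. Of the 24 remaining kinesins none rose and 3 fell, the latter near the 14.8% of all genes tested. This split rests on the list of further roles, which was drawn up with earlier results of these data known. With Kif24 outside that list, the remaining kinesins would include a risen gene. With the score table Kif27 of the remaining kinesins was called as risen (0.26, adjusted p 0.0342) and Kifc2 as fallen (-0.26, adjusted p 0.0342).

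Kifc3, Kif12 and Kif26a were the 3 genes that fell. Kifc3 is a minus-end motor of apical transport and of cell junctions in epithelia. Its signal went from 525 to 323 in replicate 1 and from 551 to 337 in replicate 2, and its log2 ratio was -0.76 ± 0.11 (adjusted p 0.00183). Kif12 went from 4152 to 2859 and from 4467 to 3337, a log2 ratio of -0.50 ± 0.11 (adjusted p 0.0138). Kif26a, an unusual kinesin without motor activity that dampens GDNF-RET signaling in enteric neurons, went from 1908 to 1577 and from 2319 to 1606. In all 3 genes both BIO signals were below both control signals. The log2 ratio of Kif26a was -0.42 ± 0.12 (adjusted p 0.0329), but a second, dim probe was at 0.04 (adjusted p 0.836). No kinesin passed the study's cut-offs as lower, which 2.04% of all genes did. The calls of Kif12 and Kif26a were lost with the processed signals (adjusted p 0.0701 and 0.115) with median centering in place of loess (adjusted p 0.0902 and 0.125) and with the score table (adjusted p 0.190 and 0.229). Kif26a also lost its call with an offset of 16 (adjusted p 0.0556) and with the mean of its probes, which was at -0.19 (adjusted p 0.214).

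Kif5b, Kif3a and Kif7 are named whatever their values, and none of the 3 was called. Kif5b, the widely expressed heavy chain of kinesin-1, went from 2069 to 2110 in replicate 1 and from 2533 to 2222 in replicate 2. Its log2 ratio was -0.10 ± 0.12, with an interval from -0.36 to 0.17 (adjusted p 0.604). Kif3a had 2263 and 2006 in replicate 1, and 2187 and 2302 in replicate 2, a log2 ratio of -0.07 ± 0.12 with an interval from -0.34 to 0.20 (adjusted p 0.738). Kif7 had 911 and 1131, and 964 and 959, a log2 ratio of 0.09 ± 0.12 with an interval from -0.17 to 0.36 (adjusted p 0.624). In each of these 3 genes the sign differed between the arrays and the groups overlapped.

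Outside the mitotic list, no gene of kinesin-1, kinesin-2, kinesin-3 or kinesin-4 passed the test at its brightest probe. Without the genes of the mitotic list, the medians were -0.10 for 3 genes of kinesin-1 and 0.04 for 4 of kinesin-2. They were -0.18 for 5 tested genes of kinesin-3 and 0.07 for 4 of kinesin-4, Kif7 included. Over the 22 uncalled genes the log2 ratio ranged from -0.32 for Kif1c to 0.33 for Kif6, 16 of them lay within 0.2 of 0, and 11 had opposite signs on the 2 arrays. Their 95% intervals reached from -0.62 for Kif1c to 0.57 for Kif6. All 22 upper limits were below 0.88, the smallest rise called in the mitotic list. These genes were picked as uncalled, and standard errors of the other kinesins were 0.11 to 0.13. Such limits were thus largely fixed by the choice of genes and are no further result. Kif6, a kinesin of motile cilia, was the nearest to a call with an adjusted p of 0.0631 at signals from 43.1 to 69.7. With the processed signals it was at 0.54 (adjusted p 0.0603). For dim genes such as Kif6 the upper limits may lie too low, since the offset pulls their ratios toward 0. A second, dimmer probe of the neuronal kinesin-1 gene Kif5a fell by 0.64 (adjusted p 0.00430), from 95.8 to 58.2 and from 140 to 80.4, whereas the brightest was at -0.29 (adjusted p 0.140). The mean of both probes was called as fallen (-0.47, adjusted p 0.0129).

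**Figure D2:**
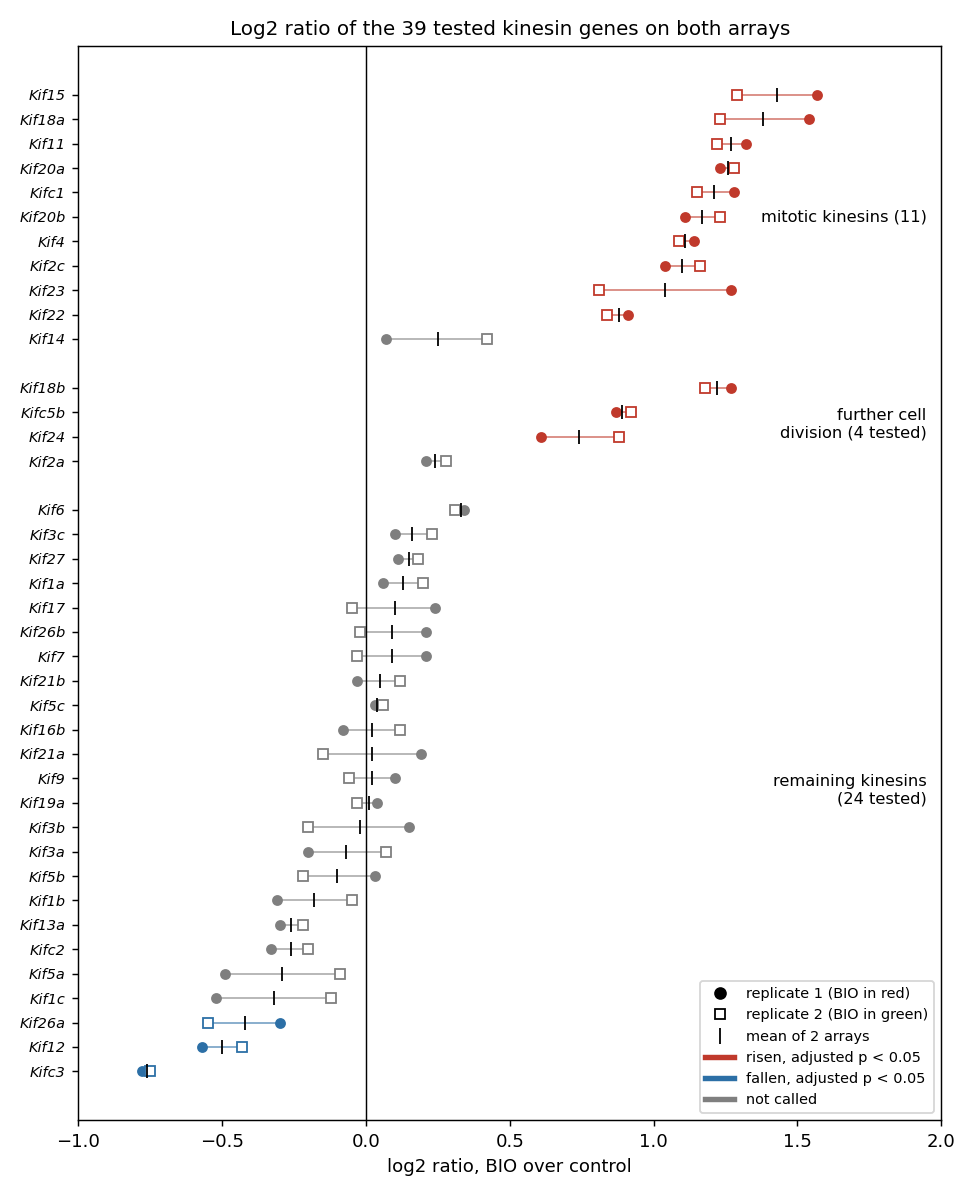
Log2 ratio of BIO over control (x axis) of the 39 tested kinesin genes, with replicate 1 as filled circles, replicate 2 as open squares and the mean as a bar, colored by the limma call. The 10 risen mitotic kinesins lie between 0.88 and 1.43, Kif18b, Kifc5b and Kif24 lie at 1.22, 0.89 and 0.74, and the 24 kinesins at the bottom lie between -0.76 and 0.33.

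The partners of the motors were followed in lists by role. All 15 mitotic partners rose and none fell, against 9.13% and 14.8% of all genes tested, with a median log2 ratio of 1.00. The largest rise was that of Cenpe, the kinesin that holds chromosomes to microtubule ends, from 3877 to 10342 in replicate 1 and from 4532 to 12580 in replicate 2 (log2 ratio 1.41, adjusted p 0.000137). The smallest was that of Cit, from 235 to 358 and from 211 to 343 (0.52, adjusted p 0.0136). Between them lay Racgap1 with 0.86, the partner of Kif23, Prc1 with 0.94, the partner of Kif4, and Aurkb with 1.25, which travels with Kif20a. The partners of the uncalled Kif14 and of the called Kif23, Kif4 and Kif20a thus all rose, with Kif14's partner Cit lowest among these. These pairs were picked after the values were seen. Aurkb, a dim gene, lay above Cenpe with the processed signals (1.62 against 1.44) and with the score table (1.65 against 1.46). Cit, also dim, was not the lowest of the list with the processed signals (0.65, Hmmr 0.61) or the score table (0.68, Hmmr 0.58). The other settings that used both arrays kept Cenpe highest and Cit lowest. With median centering the rise of Cit was not called (0.38, adjusted p 0.304).

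Of 16 partners of the transport kinesins, 3 fell, none rose and 13 were not called, with a median of -0.14. The share that fell is near the 14.8% of all genes tested. Klc4, a light chain that couples kinesin-1 to its cargo, fell the most, from 3758 to 2297 and from 4031 to 2434 (-0.74, adjusted p 0.00230). Klc2, another light chain, was at -0.47 (adjusted p 0.0184), and Kidins220 had the smallest fall called with -0.43 (adjusted p 0.0230). Kifap3, the adaptor of Kif3a and Kif3b, was at -0.35 and missed the threshold (adjusted p 0.0700). The fall of Klc4 was also called with the processed signals (adjusted p 0.0426) and with median centering (adjusted p 0.00470), and those of Klc2 and Kidins220 were not.

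Dynein and dynactin drive transport in the opposite direction. Of 14 such genes 1 rose and 2 fell, near the shares of 9.13% and 14.8% among all genes tested, with a median of -0.08. The rise was that of Dync1i1 (0.53, adjusted p 0.00980), and the falls were those of Dync1i2 (-0.41, adjusted p 0.0293) and Dctn2 (-0.38, adjusted p 0.0386). Neither fall was called with the processed signals or with median centering, and the rise was lost with the latter. Intraflagellar transport, in which kinesin-2 moves cargo into the cilium, had 3 risen genes and 1 fallen gene of 14, against 9.13% and 14.8% of all genes tested, with a median of 0.29. Ift74 rose by 0.50 (adjusted p 0.0141), Dync2h1, the motor of the way back, by 0.49 and Ift57 by 0.42, while Ift20 fell by 0.54 (adjusted p 0.0102). All 4 calls were lost with the processed signals and also with median centering. Of 12 tubulin genes, Tubb4a and Tubb5 rose (0.49 and 0.46, adjusted p 0.0159 and 0.0268) and Tubb2a and Tuba1a fell (-0.65 and -0.40, adjusted p 0.00378 and 0.0369), with a median of 0.25. These 2 of 12 in each direction stand against the same shares of all genes. With the processed signals and with median centering the fall of Tubb2a was called and the rise of Tubb4a and the fall of Tuba1a were not, while Tubb5 was called with median centering only.

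Genes of proliferation and of the S phase were set beside the mitotic kinesins. Of 12 genes 11 rose and none fell, against 9.13% and 14.8% of all genes tested, with a median of 0.66. Top2a, which untangles chromosomes, had the largest rise with 1.22 (adjusted p 0.000213), Ccnb1, the cyclin of mitotic entry, rose by 1.18, and Mki67, which coats mitotic chromosomes, by 1.06. The smallest rise called was that of Mcm4, part of the helicase that opens replication origins, with 0.41 (adjusted p 0.0300). Mcm7 of the same helicase was at 0.20 and was not called. With the processed signals 6 of the 12 and with median centering 7 of the 12 were called as risen, whereas 14 and 13 of the 15 mitotic partners and, under both, 10 of the 11 mitotic kinesins were called. With the score table only Mki67, Top2a and Ccna2 of the 11 risen genes kept their call. Among the mitotic partners Prc1, Aurkb, Cdca8 and Hmmr lost theirs with that table.

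**Figure D3:**
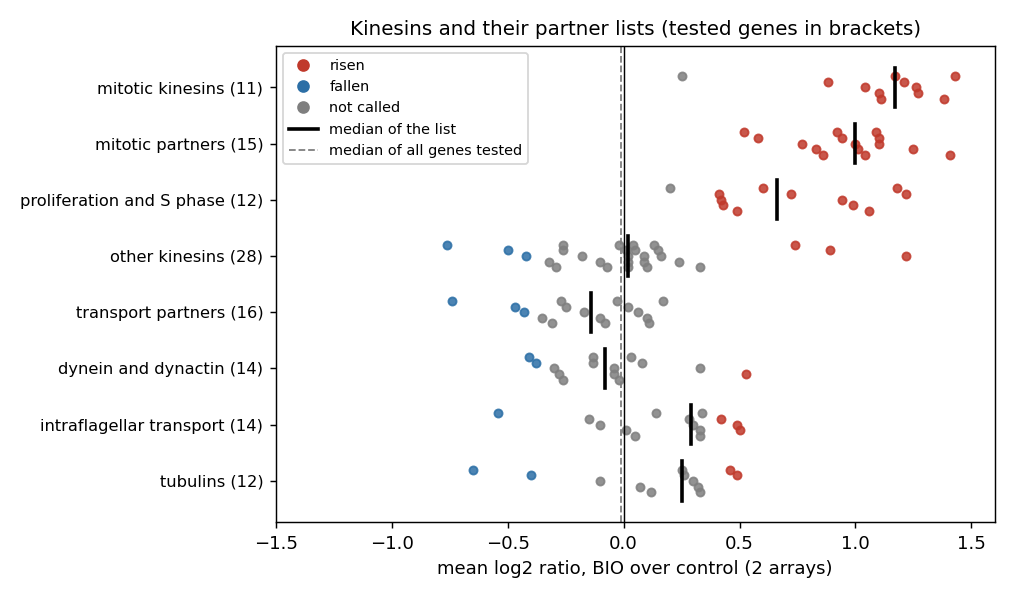
Mean log2 ratio of BIO over control (x axis) of single genes in 8 lists, colored by the limma call, with the median of each list as a black bar and that of all genes tested as a dashed line. The medians of mitotic kinesins and mitotic partners lie at 1.17 and 1.00, that of the other kinesins at 0.02 and that of the transport partners at -0.14.

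The promoter letters were compared with these calls. TTTGAA, searched on both strands, occurred in 9 of the 10 mitotic kinesin promoters, all but that of Kif18a, and in 5 of 27 promoters of the other kinesins. It occurred in 17.9% of all 32851 promoters, in 12.9% of those of all genes tested and in 20.1% of those of risen genes. Among the other kinesins it was found in Kif18b and Kifc5b, which rose, and in Kif1a, Kif26b and Kif27, which were not called. The promoter of the risen Kif24 held none.

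In the mitotic kinesins the letters lay close to the start site in 7 of 10 promoters. They began 19 bases before it in Kif11 and Kif15 and 17 bases before it in Kif22, and at base 2 in Kifc1, base 3 in Kif23, bases 8 and 14 in Kif20b and base 20 in Kif4. Kif15 and Kif22 held a second match farther upstream, beginning at -234 and -215. In Kif2c they began at -103, and in the uncalled Kif14 at -228. A match wholly within 50 bases of the start on either side, a limit set after these positions were seen, was found in 4.94% of all promoters, in 9.48% of those of risen genes and in 2.85% of those of tested genes not called. Such a match was also found in 4 of 27 promoters of the other kinesins, those of Kif18b, Kifc5b, Kif1a and Kif26b.

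**Figure D4:**
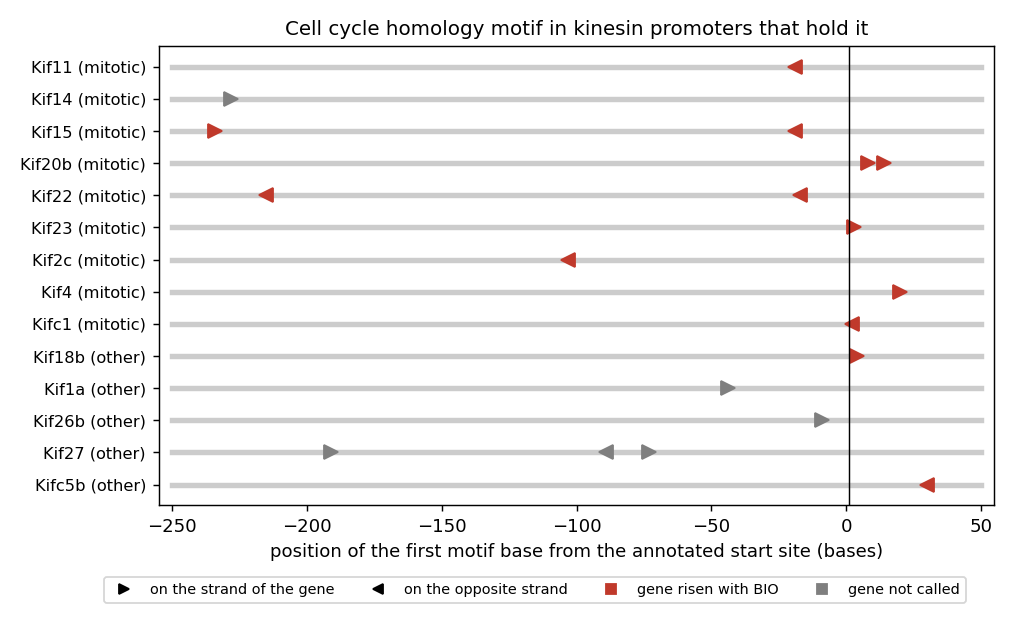
Position of the cell cycle homology letters from the annotated start site (x axis, bases; vertical line at the start) in the 14 kinesin promoters that hold them, with arrows for the strand and red for genes that rose with BIO. In 7 mitotic kinesins a match begins between -19 and 20, and in Kif2c and Kif14 it lies farther upstream.

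CCAAT, the NF-Y box that often accompanies the cell cycle homology region, was found in 6 of the 10 mitotic and in 11 of the 27 other kinesin promoters, against 37.4% of all promoters. The E2F letters TTTGGCGC were found in Kif18a and Kif15 only, against 0.514% of all promoters, and in Kif15 they directly adjoin the homology letters. TTTAAA occurred in 2 of the 10 mitotic and in none of the 27 other kinesin promoters (13.2% of all promoters). TTTCCCGC, a further E2F form (1.07% of all promoters), and CTTTGAT, the letters read by TCF and LEF factors (3.73% of all promoters), were found in no kinesin promoter. These are matches of letters in short windows, and binding of a factor was not measured.

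Markers of the cell types of the ureter were read on the same arrays, where 14.8% of all genes tested fell. All 5 endothelial markers fell, with a summed processed signal of 19073 and 22922 in control and of 3124 and 5989 with BIO. Of the mesenchymal markers 4 of 6 fell (118292 and 121286 in control, 72630 and 83163 with BIO), and of the epithelial markers 5 of 6 (71623 and 71817 in control, 37330 and 44512 with BIO). Of the markers of neurons and neural crest 5 of 8 fell (39263 and 44280 in control, 28132 and 38578 with BIO), of macrophages 3 of 4 (4124 and 4624, 2318 and 3468) and of erythroid cells 2 of 4 (64477 and 74180, 45526 and 40262). Of these markers none rose, and none lay at the floor of 15 in either group. The summed signal of the 11 mitotic kinesins was 17028 and 19286 in control and 39413 and 41770 with BIO, and that of the other 30 was 57451 and 63058 in control and 56363 and 63287 with BIO. The part of cell type shares in the kinesin results was not tested.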

How the data were processed

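RNA of control and of BIO-treated ureter explants had been hybridized on 2 Agilent 2-color arrays with exchanged dyes. Each array, a pair of pools, was 1 replicate, since the labels number control and BIO RNA separately. Per the labels, the authors used Agilent Feature Extraction 10.7.3.1. The deposited scanner tables give mean and local background intensities without normalization and processed signal intensities, which are background-subtracted and dye-normalized. The authors also deposited 1 score per probe and array, which tracks the fold change between BIO and control with a sign; how it was made and centered is not given in the sources used here.

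Mean intensities were corrected by normexp (offset 50) and loess-normalized within arrays with limma 3.58.1 (R 4.3.3). Spots of a probe were averaged, and outlier spots (3.49% and 3.16%) were left out. Of 39429 probes, 28824 were well above background in a group on both arrays and were tested against a log2 ratio of 0 with eBayes, two-sided, with Benjamini-Hochberg adjustment at 0.05. Only 1 residual degree of freedom came from the arrays and 7.14 from the prior, and the number of arrays limits the precision (median SE 0.111). Intervals are those of limma at 95%. A gene was represented by its brightest probe. Genes that are no kinesins were named through RefSeq (GRCm38.p6), and probe coordinates are those of the file headers (mm9). For the study's cut-offs on intensity and fold change, processed signals were raised to at least 15 and centered on each array's median. Signals and ratios are given for the mitotic kinesins, for every other kinesin called and for Kif3a, Kif5b and Kif7, and of each partner list the called genes with the largest and smallest ratio are named; probes or genes named beyond this were chosen after their values were seen. Members and lists were chosen with earlier results of these data known.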

Additional observations from a re-analysis of the deposited data

How the results depend on the processing

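The comparison is itself paired, since each array holds control and BIO, and no fit without this pairing was run. The number of mitotic kinesins called as risen, 10, was 8 to 10 under the other settings, except for 5 with the deposited score table and 13 of 15 tested when the further cell division kinesins were moved into the list. Of the tested probes, 22% have the same log2 value on both arrays in the score table. No mitotic kinesin was called as fallen under any setting. The number of other kinesins called as risen was 2 to 4, and it was 0 once the further cell division kinesins had been moved. The number called as fallen, 3, was 1 with processed signals, 1 after median centering and 0 with the study's cut-offs on intensity and fold change. The median of the mitotic kinesins, 1.17, was 1.11 with median centering and 1.11 with the wider list, and 1.16 to 1.23 on single arrays. That of the other kinesins, 0.02, was 0.08 with the processed signals and -0.06 with median centering, and -0.03 to 0.05 on single arrays. The difference of the medians, 1.15, was 1.13 both with processed signals and from the score table, 1.15 with an offset of 16, 1.17 after median centering, 1.10 with the wider list and 1.18 on each array alone. Over 39 genes and 6 alternatives with a test, 0 calls were reversed, 14 were lost (8 through the score table) and 4 new ones appeared. The number of all genes called fell from 1970 risen and 3184 fallen to 797 and 1126 with the processed signals and to 827 and 1939 with median centering, and the score table turned them to 1929 and 1319. The study's cut-offs gave 225 and 440. The causes of these differences were not tested. Protein sequences were not analysed here.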
